A study of Mus musculus with 30 samples.

Results

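The genes described here encode the CD3 chains of the T cell receptor complex (Cd3d, Cd3e, Cd3g and Cd247), the coreceptors (Cd4, Cd8a and Cd8b1), the accessory receptors Cd5 and Cd28, and the adaptor Lat. They were taken as all non-control probes of the arrays whose gene name is one of these 10 symbols, which gave 10 genes of 29654 distinct gene names and 13 probes of 39429 distinct probes, with 2 probes each for Cd247, Cd4 and Cd8a and 1 for each other gene. All 10 genes passed the filter on dim probes. The arrays measured RNA from blood of male C57BL/6J mice taken by cardiac puncture, so each value is an average over every cell type in blood. The 6 groups were irradiated and unirradiated p38DKI mice, irradiated and unirradiated p38DN mice, and irradiated and unirradiated p38WT mice, with 5 arrays each, 30 in all. Irradiated mice had received 7 Gy of X-rays 24 h before the blood was taken. DKI and DN are the submitters' names for altered p38 genotypes and are not spelled out in the labels used here, which also state no age. The question was whether signalling through p38, a stress-activated kinase, alters the blood transcripts used to estimate a radiation dose.

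The T cell receptor itself has almost no cytoplasmic part and depends on the CD3 chains, whose tails carry the tyrosine motifs that are phosphorylated when antigen is bound. Cd247 (the zeta chain) carries more of these motifs than the other chains. Cd4 and the Cd8a and Cd8b1 chains bind the invariant parts of MHC class II and class I and bring the kinase Lck to the receptor, and they mark helper and cytotoxic T cells. Cd4 is also made by some myeloid cells, and Cd8a without Cd8b1 by some dendritic cells. Cd5 restrains receptor signalling, Cd28 is the main costimulatory receptor of naive T cells, and Lat is the membrane adaptor on which the signalling complex is assembled. Lymphocytes of the blood are known to be lost within a day of a dose of this size.

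The probes for the coreceptors and for Cd247 are shown because 2 probes of a gene can report different transcripts or regions. Each line gives the first 30 of 60 bases, 5′ to 3′, with no base in capitals, and positions of the whole probe are in mm9 as in the scanner files.
Cd4, brighter probe, chr6:124814711-124814770, minus strand: gcccactccccactcctgcttcctgagctg
Cd4, dimmer probe, chr6:124817706-124817765, minus strand: tcaagtggtggcccctgagacagggctgtg
Cd8a, brighter probe, chr6:71328911-71328970, plus strand: cctgaaggaactaagagtcacccatggtcc
Cd8a, dimmer probe, chr6:71323885-71323944, plus strand: tctcaccctgaacaagttcagcaaggaaaa
Cd8b1, chr6:71287231-71287290, plus strand: agtaggaagtttctaagcttcacttcttct
Cd247, brighter probe, chr1:167786567-167787585, plus strand: gaccccaaccagctctacaatgagctcaat
Cd247, dimmer probe, chr1:167800324-167800383, plus strand: aaacccccaacccattcatagggaatatca

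Promoters are shown for the neighbours Cd3d and Cd3g, whose deviations from group means correlated most closely of all pairs of the 10 genes, and for Cd8a, which fell in all 3 genotypes. The RefSeq promoter table (GRCm38.p6) held 7 of the 10 genes, all but Cd4, Cd28 and Cd8b1. Each line is the 250 bases before the transcript start of that table, which for Cd3d lies a little inside the gene's outer limit printed further on, 5′ to 3′ on the gene's strand, and capitals mark GGAAG on either strand (read as CTTCC on the other), the core letters bound by ETS factors.
Cd3d, chr9:44981536-44981785, plus strand: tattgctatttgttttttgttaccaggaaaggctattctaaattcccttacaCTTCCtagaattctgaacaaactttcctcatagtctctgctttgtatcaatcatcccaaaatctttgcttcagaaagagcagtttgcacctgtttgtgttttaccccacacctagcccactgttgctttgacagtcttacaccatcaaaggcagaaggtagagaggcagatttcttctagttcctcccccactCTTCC
Cd3g, chr9:44980432-44980681, minus strand: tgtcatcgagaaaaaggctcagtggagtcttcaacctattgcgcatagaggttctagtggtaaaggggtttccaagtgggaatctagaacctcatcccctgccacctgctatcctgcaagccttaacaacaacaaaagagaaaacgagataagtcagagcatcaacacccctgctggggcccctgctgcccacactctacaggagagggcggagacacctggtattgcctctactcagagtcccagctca
Cd8a, chr6:71373177-71373426, plus strand: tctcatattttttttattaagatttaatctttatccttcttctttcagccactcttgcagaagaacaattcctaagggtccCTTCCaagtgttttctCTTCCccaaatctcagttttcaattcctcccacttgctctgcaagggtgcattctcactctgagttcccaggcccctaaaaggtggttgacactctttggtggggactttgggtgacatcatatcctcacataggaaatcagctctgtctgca
The Cd3d and Cd8a windows held 2 matches each and that of Cd3g none, against 64.1% of 32851 promoters of the same length with at least 1. TGTGGT (either strand), the RUNX letters, was in none of the 7 windows and in 14% of all promoters, and AGATAA (either strand), the GATA letters, was in the Cd3g window once and in 9.99% of all promoters. A match is a description of the letters and not a site in use.

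Levels below are log2 processed intensity minus the array's 75th percentile, so levels of different probes cannot be set against each other. The percentile lay between intensities of 43.3 and 230.4, and the scanner software placed 39.2 to 63.2% of an array's probes well above background. A call means an adjusted p below 0.05 over 18724 genes in limma (Benjamini-Hochberg). Its p-values rest on the spread between samples within a group, estimated once for all 6 groups of 5 arrays. The p38DKI and p38WT arrays were on 5 slides scanned on 1 day, and the p38DN arrays on 5 other slides, each scanned on another day of its own, so genotype and slide cannot be told apart where p38DN is set against another genotype. Irradiated p38DKI array 2 stood apart: its lowest correlation with its group was 0.861, it had the highest level of the liver marker list of all arrays, and 9 of the 10 genes were at their lowest in the group there. The unirradiated p38DN arrays 2, 4 and 5 came next in liver markers. In bulk blood, fewer T cells and less of an RNA per cell cannot be told apart.

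After 7 Gy the cytotoxic coreceptor chain Cd8a fell in every genotype, Cd8b1 fell in p38DKI and p38WT, and the CD3 delta, epsilon and gamma chains were called in p38DKI alone or not at all. In p38DKI blood 7 of the 10 genes fell, against a background of 19.3% of all genes called lower, and none rose, against 12.1% of all genes. In p38DN blood 4 fell, against 10.3%, and Lat rose, against 17.6%. In p38WT blood 4 fell, against 12.1%, and none rose, against 15.0%. The median difference of the 10 genes was -1.15 in p38DKI, -0.60 in p38DN and -0.51 in p38WT, beside medians over all genes of -0.25, 0.01 and -0.03 on the log2 scale. Cd4, Cd8a and Cd5 were called lower in all 3 genotypes, as were 4.32% of all genes. Without irradiated p38DKI array 2 the count in p38DKI was 6, with Cd3d no longer called. With each of the 30 arrays left out in turn, the p38WT count was 2 to 4 and the p38DN count 2 to 5. Cd8a was called in all 30 of those fits in every genotype, whereas Cd5 in p38WT was called in 7, Cd4 in p38WT in 15, and Cd4 and Cd247 in p38DN in 20 each. Without scaling of the arrays 3 of the 10 (Cd8a, Cd8b1 and Cd5) were lower in p38DKI and 2 in p38DN, where the median over all genes in p38DKI was 0.37. Of all 18724 genes 759 were lower in p38DKI and 985 in p38DN in that fit. After normexp background correction 3 of the 10 were called lower in p38DKI, 0 in p38DN and 2 in p38WT, so that the Cd8a call in p38DN depends on this choice. Normexp called few genes at all: of all 18724 genes 702 were lower in p38DKI, 53 in p38DN and 914 in p38WT.

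**Figure D1:**
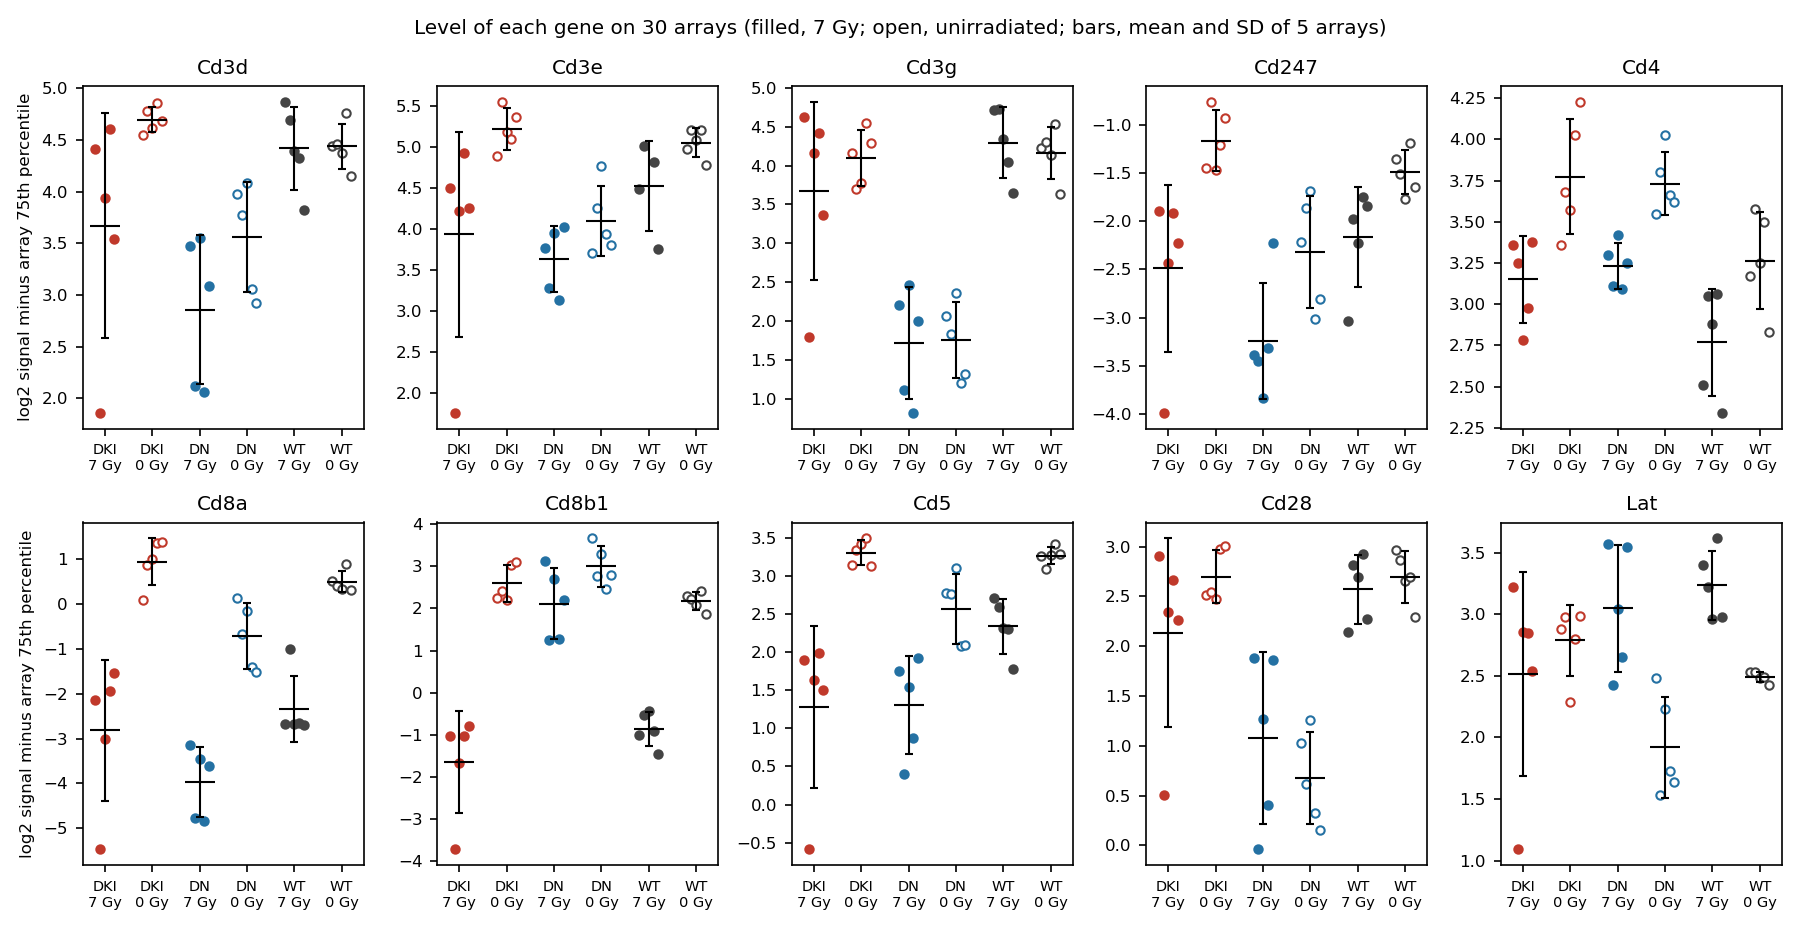
Level of each of the 10 genes on every array (y axis, log2 signal minus the array's 75th percentile) in irradiated (filled) and unirradiated (open) p38DKI, p38DN and p38WT blood, with the mean and SD of 5 arrays (4 for Cd3e in irradiated p38WT). Cd8a is lower after 7 Gy in every genotype with no overlap, Cd8b1 only in p38DKI and p38WT without overlap, and 1 irradiated p38DKI array lies far below the other 4 in 9 panels.

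Cd8a (chr6:71373427-71379171 in GRCm38.p6) encodes the alpha chain of CD8. On irradiated p38DKI arrays 1 to 5 its level was -2.14, -5.47, -3.01, -1.94 and -1.53, against 0.09, 0.87, 1.0, 1.36 and 1.38 on unirradiated ones. The irradiated p38DN levels were -3.15, -4.78, -3.45, -4.83 and -3.61, against 0.14, -0.67, -0.15, -1.41 and -1.51 unirradiated. In irradiated p38WT blood the levels were -2.68, -1.01, -2.67, -2.66 and -2.69, against 0.51, 0.41, 0.34, 0.88 and 0.31 unirradiated. Every irradiated array lay below every unirradiated array of its genotype, which held for 12.5% of all genes in p38DKI, 7.67% in p38DN and 11.4% in p38WT. The log2 difference was -3.76 in p38DKI (SE 0.525, adjusted p = 7.36e-06), a 13.5-fold lower signal. Without irradiated array 2, which was the farthest down, it was -3.10 (adjusted p = 4.6e-06). In p38WT it was -2.83 (SE 0.525, adjusted p = 0.000238), or 7.13-fold lower. The brighter probe was well above background on all irradiated p38DKI arrays but array 2 and all irradiated p38WT arrays but array 3. The 13.5-fold and 7.13-fold sizes thus rest partly on signals at background. None of the irradiated p38DN arrays was well above background for this probe, so the difference there is a bound: at least 5.28-fold lower, computed against the lowest signal among probes well above background on each array where that was higher (fitted difference -3.25, adjusted p = 4.59e-05, measured means -3.96 in irradiated and -0.72 in unirradiated p38DN blood). The dimmer Cd8a probe was well above background on 3 of 5 irradiated p38DKI arrays, 3 of 5 irradiated p38DN arrays and 2 of 5 irradiated p38WT arrays, so its sizes rest partly on signals at background, and it gave -3.18 in p38DKI (adjusted p = 7.14e-06), -1.92 in p38DN (adjusted p = 0.00166) and -2.13 in p38WT (adjusted p = 0.000736, each over 23614 probes). The difference between genotypes in this response did not reach the threshold for p38DKI minus p38WT (-0.93, 95% interval -2.45 to 0.60) or p38DN minus p38WT (-0.41, interval -1.93 to 1.11).

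Cd8b1 (chr6:71322788-71337492) encodes the beta chain, made with the alpha chain by conventional cytotoxic T cells, and lies 35.9 kb from Cd8a. Irradiated p38DKI arrays gave -1.02, -3.72, -1.67, -1.03 and -0.78, against 2.24, 2.42, 2.20, 3.03 and 3.11 on unirradiated ones. For p38WT the levels were -1.0, -0.54, -0.44, -0.90 and -1.45 after 7 Gy, against 2.30, 2.23, 2.08, 2.42 and 1.87 without. The p38DN arrays gave 3.12, 1.24, 2.70, 1.28 and 2.21 irradiated, against 3.67, 2.76, 3.30, 2.45 and 2.80 unirradiated. The dose groups were separate in p38DKI and p38WT and overlapped in p38DN. The fall was 18.9-fold in p38DKI (log2 difference -4.24, SE 0.417, adjusted p = 3.86e-08) and 8.26-fold in p38WT (-3.05, SE 0.417, adjusted p = 6.06e-06). In p38DN the difference of -0.89 was not called (95% interval -1.74 to -0.03, adjusted p = 0.115), but without irradiated p38DKI array 2, which enters the shared estimate of spread, the same difference had an adjusted p of 0.0283. Without the 4 arrays highest in liver markers it was -1.37 and called (adjusted p = 0.0137). Of the 15 alternatives other than leaving out 1 array, 4 called it. On each of the 5 p38DN slides, which hold 1 irradiated and 1 unirradiated array, Cd8b1 was lower after 7 Gy, with differences between -1.52 and -0.54.

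The Cd8b1 response differed between p38DKI and p38DN by -3.36 (95% interval -4.57 to -2.15, adjusted p = 0.00762), against 0.721% of all genes called lower in that comparison, and it was the only one of the 10 genes called there. The call was lost with the 4 groups of these genotypes fitted alone (-3.36, adjusted p = 0.0572) and with slide as a fixed block (-2.91, adjusted p = 0.561). It was also lost, with a smaller difference, without the 4 arrays highest in liver markers (-2.35, adjusted p = 0.0602) and after normexp (-2.17, adjusted p = 0.855). Over all 18724 genes the main fit called 39 higher and 135 lower in this comparison, against 11 and 15 with the groups alone. Slide as a fixed block called 0 of all genes, and normexp 1 higher and 0 lower, so a lost call there is not particular to Cd8b1. The response of p38DN minus that of p38WT was 2.16 (interval 0.95 to 3.37, adjusted p = 0.0554), with 0 of the 10 genes called beside 1.64% of all genes, and the adjusted p under the other scalings of the arrays ran between 0.0119 and 0.0406. It was 1.6 after normexp (adjusted p = 0.37), 1.64 with slide as a fixed block (adjusted p = 0.684), 1.67 without the 4 liver-high arrays (adjusted p = 0.0628) and 1.33 with liver marker level as a covariate (adjusted p = 0.104). Over all genes normexp called 0 higher and 1 lower for p38DN minus p38WT, and slide as a fixed block 2 and 0. p38DKI minus p38WT gave -1.2 (interval -2.41 to 0.01), which was not called. Within p38DN the fitted difference was thus -3.25 for Cd8a and -0.89 for Cd8b1, 2 chains of 1 receptor. That Cd8a value rests on irradiated arrays not well above background, and the dimmer Cd8a probe gave -1.92.

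Cd4 (chr6:124864693-124888247) encodes the helper coreceptor. After 7 Gy the p38DKI levels were 3.36, 3.25, 2.78, 2.98 and 3.38, against 3.36, 3.68, 3.57, 4.03 and 4.23 unirradiated. In p38DN they were 3.30, 3.11, 3.42, 3.09 and 3.25 irradiated, against 3.55, 3.80, 4.03, 3.66 and 3.62 unirradiated. The p38WT levels were 2.51, 3.05, 2.88, 3.06 and 2.34 irradiated, against 3.17, 3.58, 3.25, 3.50 and 2.83 unirradiated. The shift was small and the dose groups were separate in p38DN and overlapped in the other genotypes. The differences were -0.62 in p38DKI (SE 0.186, adjusted p = 0.0123), -0.50 in p38DN (SE 0.186, adjusted p = 0.0448) and -0.50 in p38WT (SE 0.186, adjusted p = 0.0467). Without scaling of the arrays the p38DKI difference was 0.001 (adjusted p = 0.999). On slide 2, the only slide with p38WT arrays of both doses (3 irradiated and 1 unirradiated), Cd4 differed by -0.02. The dimmer Cd4 probe was well above background on 1 of 5 irradiated and 4 of 5 unirradiated p38DKI arrays, on 0 p38DN arrays and on 4 p38WT arrays, so its sizes are not measured ones. It gave -1.02 in p38DKI (adjusted p = 0.0151), 0.22 in p38DN (adjusted p = 0.651) and -0.38 in p38WT (adjusted p = 0.407). Of the monocyte and dendritic cell list, which holds cells that can make Cd4, 10 of 12 genes were measured, with 2 higher and 3 lower in p38DKI, 3 and 2 in p38DN, and 2 and 3 in p38WT. Of all genes 12.1% were higher and 19.3% lower in p38DKI, 17.6% and 10.3% in p38DN, and 15.0% and 12.1% in p38WT. The part of the cells of that list was not tested. Array by array the bright Cd4 probe followed the other 9 genes least, with a correlation of 0.28 between its deviations from group means and theirs over 30 arrays, and it alone was not lowest on irradiated p38DKI array 2.

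Set against Cd4 on the same array, which takes out any scaling of the array, Cd8a fell further than Cd4 in all 3 genotypes. This difference of levels (which has no meaning as an absolute ratio of 2 probes) averaged -5.97 ± 1.58 in irradiated p38DKI blood and -2.83 ± 0.271 in unirradiated blood (SD, n = 5 each). It averaged -7.20 ± 0.666 in irradiated p38DN blood and -4.45 ± 0.705 in unirradiated blood. In p38WT it averaged -5.11 ± 0.648 after 7 Gy and -2.77 ± 0.266 without. No array of an irradiated group reached any array of its unirradiated group. The change was -3.13 in p38DKI, -2.75 in p38DN and -2.34 in p38WT, each with p = 0.00794 in a two-sided exact permutation test, the smallest that 252 regroupings allow (adjusted p = 0.00952 over 6 tests). For p38DN the Cd8a values after 7 Gy were not above background, so its change there is not a measured size. Cd8b1 minus Cd4 changed by -3.62 in p38DKI and by -2.55 in p38WT (exact permutation p = 0.00794 each, adjusted 0.00952). In p38DN it averaged -1.12 ± 0.725 irradiated and -0.736 ± 0.513 unirradiated, a change of -0.39 that did not pass (exact permutation p = 0.357). With the deposited values that change was -1.25 and passed (exact permutation, adjusted p = 0.00794). Cd4 is there its dimmer probe, which was well above background on 0 p38DN arrays, so that change is not a measured size. With Cd3d in place of Cd4 the same 5 of 6 tests passed. After normexp background correction only Cd8b1 minus Cd4 in p38DKI passed, and Cd8a minus Cd4 in p38WT was 0.041.

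**Figure D2:**
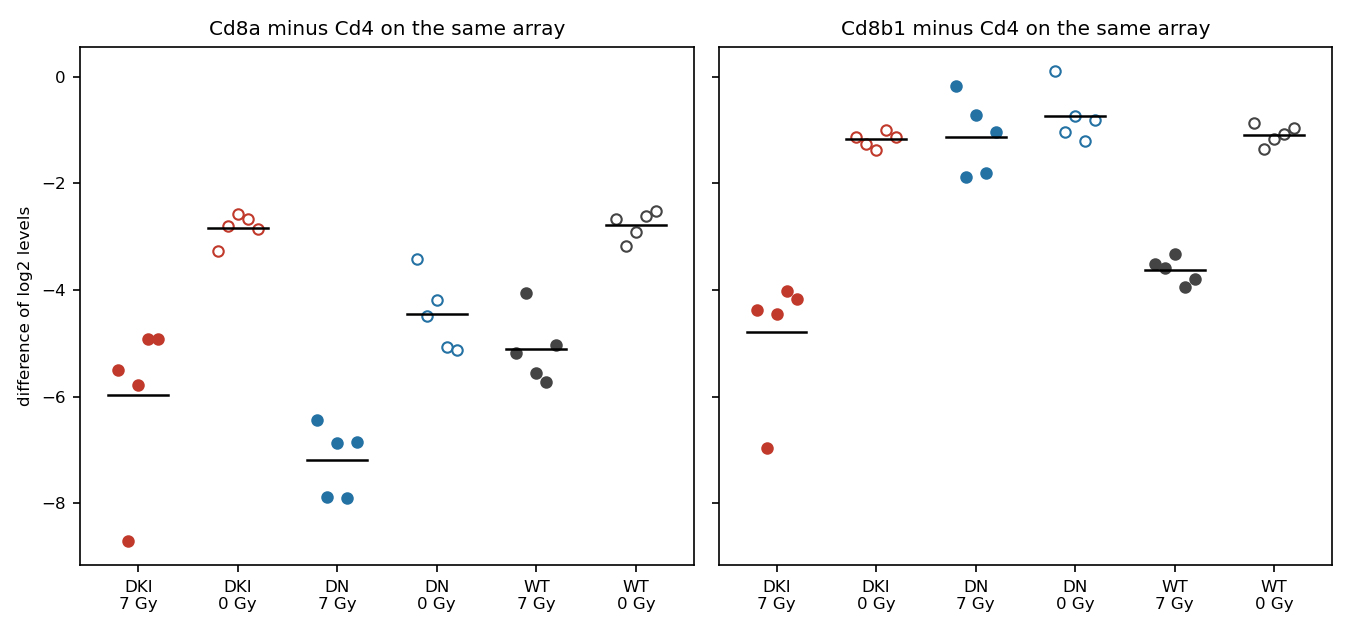
Difference of log2 levels between Cd8a (left) or Cd8b1 (right) and Cd4 on each array (y axis), for irradiated (filled) and unirradiated (open) groups, with the group mean as a line. The means fall by 2.34 to 3.13 for Cd8a in the 3 genotypes, and the p38DN groups overlap for Cd8b1, where the change was -0.39. No irradiated p38DN value of Cd8a was well above background.

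The signalling chains came next. Cd247 (chr1:165779952-165871153), the zeta chain, gave -1.89, -3.99, -2.43, -1.92 and -2.23 in irradiated p38DKI blood, against -1.45, -0.76, -1.47, -1.21 and -0.93 in unirradiated blood. The p38DN levels were -3.39, -3.45, -3.83, -3.32 and -2.23 irradiated, against -2.22, -1.86, -1.69, -3.02 and -2.81 unirradiated. For p38WT they were -3.04, -1.98, -2.23, -1.75 and -1.84 irradiated, against -1.36, -1.51, -1.77, -1.19 and -1.65 unirradiated. The dose groups were separate in p38DKI and overlapped in the other 2 genotypes, and in irradiated p38DN blood 1 of 5 arrays was well above background, so that sizes against that group rest on signals at background. Cd247 fell in p38DKI (-1.33, SE 0.344, adjusted p = 0.00477) and in p38DN (-0.93, SE 0.344, adjusted p = 0.0448), and in p38WT the difference of -0.67 was not called (interval -1.38 to 0.03, adjusted p = 0.156). Without scaling the p38DKI call was lost (-0.70, adjusted p = 0.145), as was that in p38DN (-0.83, adjusted p = 0.0972). The 2 Cd247 probes disagreed. The dimmer one, whose transcript accession differs, was 0.44 in p38DKI, 0.82 in p38DN and 0.39 in p38WT, none called (adjusted p = 0.374, 0.113 and 0.496).

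Cd3e (chr9:44998735-45009663) encodes the epsilon chain, which pairs with both delta and gamma. Irradiated p38DKI arrays gave 4.5, 1.76, 4.22, 4.93 and 4.26, against 4.89, 5.55, 5.18, 5.10 and 5.36 on unirradiated ones. In p38DN the levels were 3.77, 3.28, 3.95, 3.13 and 4.02 irradiated, against 3.71, 4.26, 4.76, 3.94 and 3.81 unirradiated. In p38WT they were 4.49, 5.01, 4.81 and 3.76 irradiated (array 3 had no value because its spot was marked by the scanner software), against 4.97, 5.21, 5.08, 5.21 and 4.78 unirradiated. Only 1 irradiated p38DKI array reached the unirradiated range, and the dose groups overlapped in the other genotypes. Cd3e fell in p38DKI (-1.28, SE 0.381, adjusted p = 0.0125), and without array 2 the difference was -0.74 (adjusted p = 0.0267). Without scaling it was not called (-0.66, adjusted p = 0.182). The differences of -0.47 in p38DN (interval -1.25 to 0.32) and -0.53 in p38WT (interval -1.36 to 0.30) were not called.

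Cd3d (chr9:44981769-44987052), the delta chain, had levels of 4.41, 1.86, 3.94, 4.60 and 3.54 in irradiated p38DKI blood, against 4.55, 4.78, 4.61, 4.86 and 4.68 in unirradiated blood. The p38DN levels were 3.47, 2.12, 3.55, 2.06 and 3.09 irradiated, against 3.98, 3.77, 4.08, 3.06 and 2.92 unirradiated. For p38WT they were 4.87, 4.69, 4.39, 4.32 and 3.82 irradiated, against 4.44, 4.46, 4.37, 4.76 and 4.15 unirradiated. The groups overlapped in every genotype, and in p38WT the means nearly coincided (4.42 ± 0.402 irradiated and 4.44 ± 0.218 unirradiated, SD, n = 5 each). The p38DKI difference of -1.02 (SE 0.373, adjusted p = 0.0377) was -0.57 without array 2 (adjusted p = 0.158) and -0.4 without scaling (adjusted p = 0.445). In p38DN it was -0.70 (interval -1.47 to 0.06, adjusted p = 0.164), and in p38WT -0.02 (interval -0.78 to 0.75). With the 4 arrays highest in liver markers left out Cd3d was called in p38DN (-1.17, adjusted p = 0.0157).

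Cd3g (chr9:44969572-44980431), the gamma chain, lies beside Cd3d on the opposite strand with the transcript starts used for the promoters 1355 bp apart, and was called in no genotype. The differences were -0.42 in p38DKI (interval -1.24 to 0.39), -0.04 in p38DN (interval -0.85 to 0.78) and 0.13 in p38WT (interval -0.69 to 0.94). In p38DKI the levels ran between 1.80 and 4.62 irradiated and between 3.70 and 4.55 unirradiated. In p38DN they ran between 0.82 and 2.47 irradiated and between 1.2 and 2.36 unirradiated, and in p38WT between 3.65 and 4.73 irradiated and between 3.63 and 4.53 unirradiated. All p38DN levels lay below all p38WT levels, and the dose ranges overlapped in each genotype. Of all genes 37.6% were called lower in unirradiated p38DN than in unirradiated p38WT blood, and 27.7% after 7 Gy. Genotype and slide cannot be told apart in that comparison. The deviations of Cd3d and Cd3g from their group means correlated at 0.96 over 30 arrays, above the other 44 pairs of the 10 genes. Arrays share the blood sample and the scaling, so this is a description only.

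Cd5 (chr19:10718107-10739026), a receptor on T cells and on some B cells that dampens receptor signalling, fell in all 3 genotypes. After 7 Gy its p38DKI levels were 1.90, -0.59, 1.63, 1.99 and 1.5, against 3.14, 3.34, 3.42, 3.50 and 3.13 unirradiated. The p38DN levels were 1.76, 0.40, 1.55, 0.87 and 1.92 irradiated, against 2.78, 2.76, 3.11, 2.08 and 2.10 unirradiated. In p38WT they were 2.71, 2.60, 2.32, 2.31 and 1.78 irradiated, against 3.26, 3.09, 3.28, 3.42 and 3.29 unirradiated. The irradiated arrays lay below the unirradiated arrays in each genotype without overlap. The difference was -2.02 in p38DKI (SE 0.35, adjusted p = 0.00011), -1.27 in p38DN (SE 0.35, adjusted p = 0.00756) and -0.93 in p38WT (SE 0.35, adjusted p = 0.0493). With no filter on dim probes the p38WT call was lost (adjusted p = 0.0823). On each of the 5 p38DN slides Cd5 was lower after 7 Gy, with differences between -2.36 and -0.17. Of the B cell marker list, 12 of 12 genes fell in all 3 genotypes, with medians of -3.91 in p38DKI, -2.36 in p38DN and -3.96 in p38WT. Of all genes 19.3%, 10.3% and 12.1% fell in the same order. The part of B cells in the Cd5 differences was not tested.

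Cd28 (chr1:60746388-60773359), the costimulatory receptor, was called after irradiation in no genotype. The difference was -0.56 in p38DKI (interval -1.31 to 0.19), 0.39 in p38DN (interval -0.36 to 1.14) and -0.13 in p38WT (interval -0.88 to 0.63). The p38DN levels ran between -0.04 and 1.88 irradiated and between 0.16 and 1.26 unirradiated, all of them below the p38WT levels, which ran between 2.14 and 2.93 irradiated and between 2.29 and 2.97 unirradiated. Irradiated p38DKI levels ran between 0.51 and 2.91 and unirradiated ones between 2.47 and 3.01, again with overlap. For p38DN against p38WT the shares of all genes and the limit by slide given for Cd3g apply to Cd28 too.

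Lat (chr7:126363827-126369705), the adaptor, was higher after 7 Gy in p38DN. In irradiated p38DN blood its levels were 3.57, 2.43, 3.04, 2.65 and 3.55, against 2.48, 1.53, 2.23, 1.73 and 1.64 in unirradiated blood. The p38WT levels were 3.40, 3.22, 2.96, 3.62 and 2.98 irradiated, against 2.53, 2.53, 2.48, 2.49 and 2.43 unirradiated. In p38DKI they were 3.22, 1.09, 2.86, 2.85 and 2.54 irradiated, against 2.88, 2.98, 2.29, 2.80 and 2.99 unirradiated. The p38WT groups were separate, as for 12.9% of all genes in that direction, the p38DN groups overlapped by 1 array on each side, and the p38DKI groups overlapped. Lat rose in p38DN by 1.13 (SE 0.291, adjusted p = 0.00442), a 2.18-fold higher signal, and was higher on all 5 slides, by 0.82 to 1.91. The p38WT difference of 0.74 narrowly missed the threshold (interval 0.15 to 1.34, adjusted p = 0.0576) and was called without irradiated p38DKI array 2 (adjusted p = 0.00998). In p38DKI it was -0.28 (interval -0.87 to 0.32), and 0.08 without array 2 (adjusted p = 0.823). Without the 4 arrays highest in liver markers the p38DN rise was 0.70 (adjusted p = 0.0565). Lat is also known in platelets and NK cells. The platelet list had 10 of 10 genes called higher in p38DN, 9 of 10 in p38WT and 3 of 10 in p38DKI, and the NK list 1, 8 and 3 of 10. Of all genes 17.6%, 15.0% and 12.1% were called higher in the same order. The log2 of the summed platelet signal ran between 10.9 and 12.4 in irradiated and between 9.82 and 10.5 in unirradiated p38DN blood. It ran between 11.8 and 12.7 in irradiated and between 10.6 and 11.3 in unirradiated p38WT blood, and between 10.4 and 12.3 in irradiated and between 10.5 and 11.6 in unirradiated p38DKI blood. The part of these cells in the Lat values was not tested.

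**Figure D3:**
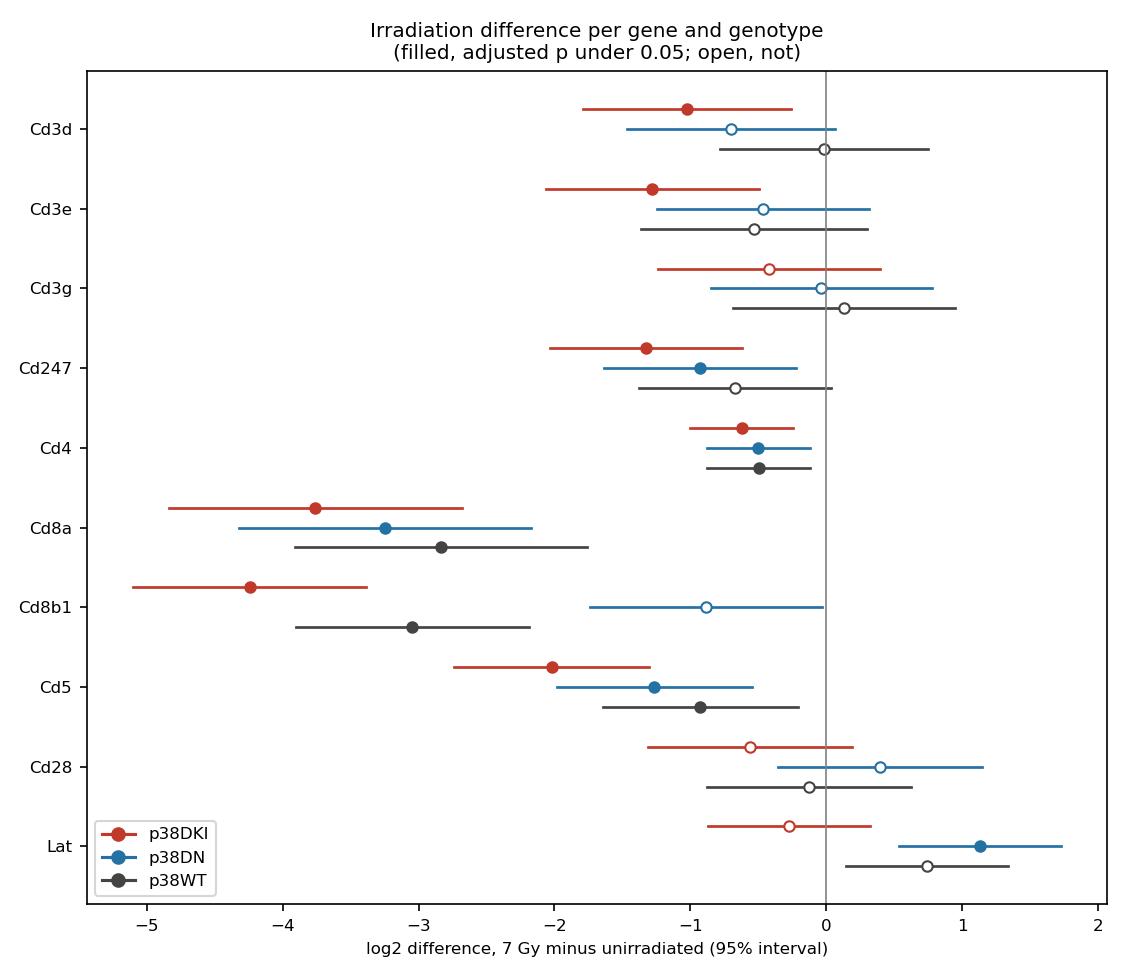
Log2 difference between irradiated and unirradiated blood (x axis) with its 95% interval for each gene in p38DKI, p38DN and p38WT, where filled points passed the adjusted threshold of 0.05. Cd8a lies below -2.8 in all 3 genotypes (in p38DN a fitted value from irradiated arrays not well above background), the p38DN point of Cd8b1 lies at -0.89 apart from -4.24 and -3.05, and Lat lies above 0 in p38DN and p38WT.

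Slide gave a further check. Within p38DKI only slide 4 held both doses (1 irradiated and 3 unirradiated arrays), and there the differences were -3.39 for Cd8a, -3.80 for Cd8b1, -1.45 for Cd5, -0.69 for Cd247, -0.71 for Cd3e, -0.58 for Cd4 and -0.31 for Cd3d. Cd3g (0.42), Cd28 (0.1) and Lat (0.53) had the opposite sign there to that over all p38DKI arrays. On p38WT slide 2 they were -2.43 for Cd8a, -2.53 for Cd8b1, -0.75 for Cd5, -0.77 for Cd247, -0.03 for Cd3e and -0.02 for Cd4, and 0.5 for Cd3d, 0.96 for Cd3g, 0.26 for Cd28 and 0.77 for Lat. Slide as a fixed block rests on those arrays for these 2 genotypes. It called 1 of the 10 genes in p38DKI, which was Cd8b1, and 0 in p38WT. Of all 18724 genes it called 255 lower in p38DKI, against 3606 in the main fit. In p38WT it called fewer than 255 lower, against 2262 in the main fit. A call lost with this block in these 2 genotypes is therefore not particular to the 10 genes. The signs of Cd8a, Cd8b1 and Cd5 were the same within slides as over all arrays, with the p38DN differences of Cd8a between -4.11 and -2.11. In p38DN the block left Cd8a, Cd5 and the rise of Lat called, and Cd247 (adjusted p = 0.0725) and Cd4 (adjusted p = 0.0538) were not. Same-numbered p38DN arrays shared a slide, and with the replicate number as a block over all arrays these were lost too (adjusted p = 0.0596 for Cd247 and 0.0566 for Cd4).

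**Figure D4:**
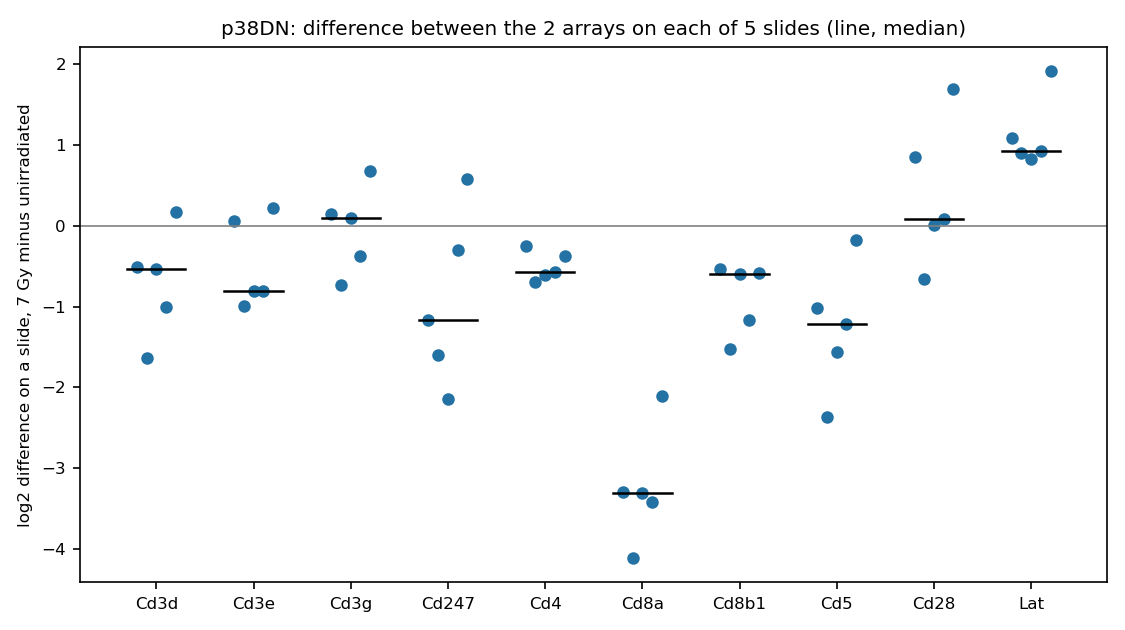
Difference between the irradiated and the unirradiated p38DN array on each of 5 slides (y axis, log2; points) and their median (line) for the 10 genes. Cd4, Cd8a, Cd8b1 and Cd5 are below 0 on 5 of 5 slides and Lat is above 0 on 5 of 5.

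Between genotypes, no difference between p38DKI and p38WT blood passed the test for any of the 10 genes. Without irradiation 0 of the 10 were called (0.101% of all genes were), with Cd4 nearest at 0.51 (interval 0.13 to 0.89, adjusted p = 0.445; 1 of 10 at an unadjusted p under 0.05). After 7 Gy 0 were called (4.51% of all genes), the largest difference being Cd5 at -1.06 (interval -1.77 to -0.34, adjusted p = 0.0729), followed by Cd8b1 at -0.78 (interval -1.63 to 0.08), and 3 of 10 had an unadjusted p under 0.05. The irradiation response of p38DKI minus p38WT was called for 0 of the 10 (0.00534% of all genes), where Lat gave -1.02 (interval -1.86 to -0.17, adjusted p = 0.293). A p that misses the threshold does not show that the genotypes are alike.

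Between p38DN and p38WT 55.9% of all genes were called without irradiation and 43.8% after 7 Gy, so calls among the 10 say little about them in particular. In unirradiated blood 5 of the 10 were lower (37.6% of all genes) and Cd4 was higher (18.3%), a share near that background. With liver marker level as a covariate 0 of the 10 were lower there, with the 4 liver-high arrays left out 3, with the deposited values 2, and with each array left out in turn 2 to 8. After 7 Gy 6 were lower (27.7%) and 2 higher (16.1%), where 3 were lower with the liver covariate and 1 after normexp. The Cd3g difference was -2.41 without irradiation and -2.57 after it, 5.3-fold and 5.95-fold below p38WT, and that of Cd28 was -2.02 and -1.5. Cd3d (-0.87 and -1.56) and Cd247 (-0.82 and -1.08, the second against signals mostly at background) were lower at both doses, and Cd3e was called lower without irradiation (-0.95). Cd8b1 went the other way, at 0.82 without irradiation (not called, adjusted p = 0.0971) and 2.98 after it, or 7.87-fold higher than in irradiated p38WT blood. After 7 Gy Cd4 was 0.46 higher, Cd5 lower (-1.04) and Cd8a at least 1.71-fold lower. Slide and scan day cannot be told apart from genotype in any of these values, and the NK list (9 of 10 and 10 of 10 lower) and the liver list (13 of 14 and 4 of 14 higher) moved with them. Their part was not tested.

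The order of the 6 groups therefore differed by gene. Cd3d, Cd3e, Cd247, Cd4, Cd8a, Cd5 and Cd28 were highest in unirradiated p38DKI blood, Cd8b1 in unirradiated p38DN blood, and Cd3g and Lat in irradiated p38WT blood. The lowest group was irradiated p38DN for Cd3d, Cd3e, Cd3g, Cd247 and Cd8a, irradiated p38DKI for Cd8b1 and Cd5, irradiated p38WT for Cd4 and unirradiated p38DN for Cd28 and Lat. Most neighbours in these orders lay within the larger SD of the pair. The gaps beyond it included unirradiated p38DN and irradiated p38WT for Cd8a (-0.72 ± 0.734 and -2.34 ± 0.744), irradiated p38DN and irradiated p38WT for Cd8b1 (2.11 ± 0.843 and -0.87 ± 0.402), and irradiated p38DKI and unirradiated p38DN for Cd3g (3.67 ± 1.15 and 1.76 ± 0.494), each SD over 5 arrays.

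The other marker lists were counted in the same way. Of 10 neutrophil genes 8 rose in p38DKI, 2 in p38DN and 10 in p38WT, and of 10 red cell genes 7, 4 and 5 fell and 1 rose in each. Of all genes 12.1%, 17.6% and 15.0% rose and 19.3%, 10.3% and 12.1% fell in the same order of genotypes. Of 14 liver genes 0 were called in p38DKI and p38WT and 1 fell in p38DN. The log2 of the summed liver signal ran between 2.79 and 13.2 in irradiated and between 2.76 and 8.42 in unirradiated p38DKI blood. It ran between 4.65 and 8.2 in irradiated and between 5.57 and 12.7 in unirradiated p38DN blood, and between 2.86 and 4.76 in irradiated and between 1.98 and 2.7 in unirradiated p38WT blood. The part of these lists in the differences of the 10 genes was not tested.

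The wider pathway was described with 34 genes of proximal receptor signalling, all measured. In p38DKI blood 12 fell and 0 rose (median -0.60), in p38DN 2 fell and 5 rose (median -0.01), and in p38WT 4 fell and 3 rose (median -0.14). Of all genes 19.3% fell and 12.1% rose in p38DKI, 10.3% fell and 17.6% rose in p38DN, and 12.1% fell and 15.0% rose in p38WT, so the counts in p38DN and p38WT were near or below the background. Dgka, a diacylglycerol kinase that limits receptor signalling, fell in p38DKI (-1.68, adjusted p = 1e-05) and in p38WT (-1.36, adjusted p = 0.000144). Malt1, a protease of the NF-kB branch, fell in p38DKI (-1.55), p38DN (-0.91) and p38WT (-0.88), with adjusted p of 6.18e-05, 0.00828 and 0.0106. Trat1, an adaptor that stabilises the receptor complex, fell in p38WT (-1.76, adjusted p = 0.000868). Rises were seen for Fyn, a kinase of the Src family, in p38DN (1.5, adjusted p = 0.00148) and p38WT (0.96, adjusted p = 0.0368), and for the adaptor Fyb in p38DN (1.54, adjusted p = 0.000268) and p38WT (0.82, adjusted p = 0.0381). The adaptor Lcp2 rose in p38DN (1.81, adjusted p = 9.41e-05) and the kinase Txk in p38WT (1.05, adjusted p = 0.0207). Malt1 also acts in B cells, and Fyn, Fyb and Lcp2 in platelets, with the lists of those cells as given above, and their part was not tested.

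Of 16 costimulatory and adhesion receptors, 8 fell and 2 rose in p38DKI (median -1.04), 3 fell and 2 rose in p38DN (median -0.47), and 2 fell and 3 rose in p38WT (median -0.40), beside those same shares of all genes. Btla, an inhibitory receptor of B and T cells, fell in all 3 genotypes (-3.41, -2.99 and -3.03 in p38DKI, p38DN and p38WT, adjusted p = 2.45e-07, 2.24e-06 and 1.5e-06). Slamf6, a lymphocyte receptor, also fell in all 3 (-2.77, -1.62 and -2.28 in the same order, adjusted p = 9.48e-07, 0.000611 and 1.57e-05). The adhesion receptor Cd2 fell in p38DKI (-1.27, adjusted p = 0.00493), and the activation receptor Tnfrsf9 in p38DN (-0.88, adjusted p = 0.0389). Cd226 rose in p38DKI (1.19), p38DN (1.5) and p38WT (1.75), with adjusted p of 0.0136, 0.00238 and 0.000676, and is also a platelet and NK cell receptor. Slamf1, also found on platelets, rose in the same 3 genotypes (1.47, 1.91 and 1.78, adjusted p = 0.00361, 0.000314 and 0.000724). The integrin chain Itgal, shared by leukocytes, rose in p38WT (0.89, adjusted p = 0.0372).

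**Figure D5:**
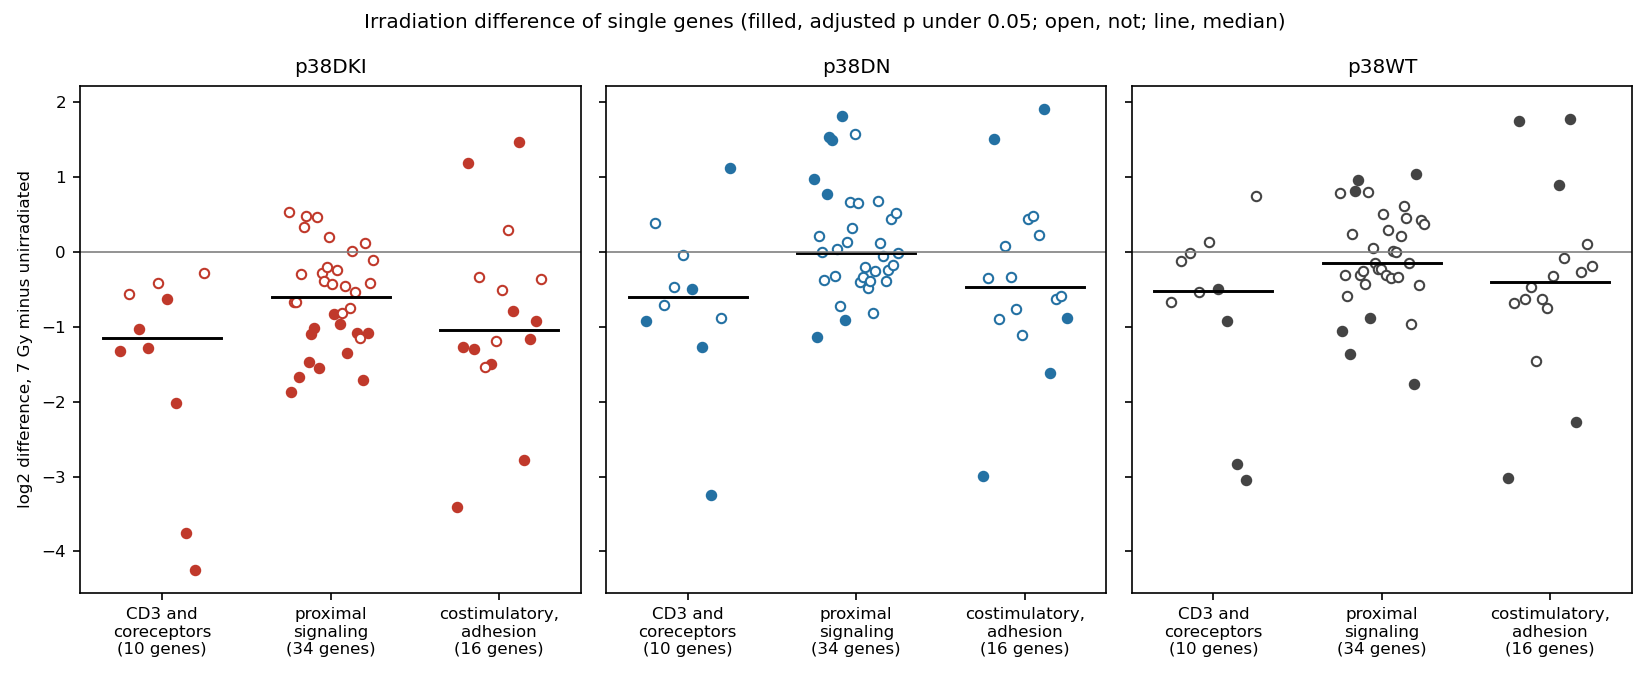
Log2 difference after 7 Gy (y axis) of each gene in p38DKI, p38DN and p38WT blood for the 10 genes described, the 34 proximal signalling genes and the 16 costimulatory and adhesion receptors, with the median as a line and genes past the threshold filled. The medians of the 34 genes are -0.60 in p38DKI, -0.01 in p38DN and -0.14 in p38WT, above those of the 10 genes (-1.15, -0.60 and -0.51).

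Likeness across arrays was described with the mean of the 10 standardized genes over 30 arrays. The other genes that followed it most closely in level were Sit1 (Pearson r = 0.95), Satb1 (0.95), Cd96 (0.94), Gimap1 (0.94), Lta (0.94), Jakmip1 (0.94), Mfng (0.94), Ptprcap (0.93), Cyfip2 (0.93) and Evl (0.93). With group means removed the closest included an unnamed probe annotated ENSMUST00000103291.1, Sla2, Ptprcap and Tnfrsf18 (0.95 each). Among the 10 genes, correlations of each with the other 9 after removing group means were 0.66 for Cd247 and between 0.83 and 0.93 for the 8 besides Cd247 and Cd4 (over 30 arrays, 29 for Cd3e). Arrays share dose, genotype, slide and scaling, so these are descriptions with no test.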

How the data were processed

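RNA of blood from 30 mice was measured on 30 one-colour Agilent arrays, 1 per sample. Per the file headers, the spot intensities were made with Agilent Feature Extraction 12.0.2, which subtracts the background and detrends within an array, and no normalization between arrays was applied. The authors' deposited table holds log2 values of 18417 probes on the same arrays, equal to the log2 processed signal minus a constant per array for probes spotted once (within 0.01), with 21825 empty cells, and was used as an alternative. It lacks the brighter Cd4 probe.

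Here log2 processed intensity minus each array's 75th percentile was used. Control and outlier spots were left out and repeated spots averaged. Kept probes (23614) stood well above background on 4 or more of the 5 arrays of some group, with values on 20 or more arrays, and the brightest probe stood for each of 18724 genes. Group means over all arrays were fitted in limma 3.58.1 (R 4.3.3) with 24 residual degrees of freedom and Benjamini-Hochberg adjustment over all genes, and the fit was tested on simulated data. Within-array differences of 2 genes were compared by exact permutation tests in scipy 1.17.1. Gene names came from RefSeq by accession for 29056 probes, by symbol for 3150 and by synonym for 116, and 7107 kept the file's name. Named genes were all 10 members, and per irradiation effect up to 3 with the smallest p in each direction of the 2 T cell lists. For likeness they were the 10 and 5 genes correlating best with the members' mean. Some genes that this rule names are not reported here. The members and lists were chosen with earlier results of these data known. The alternatives covered scaling, background correction, filters, choice of probe, slide, replicate number, liver markers and each array left out. The number of arrays limits the precision.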

Additional observations from a re-analysis of the deposited data

Results flagged for a closer look

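In each group of 5 arrays the highest and the lowest value of a gene were set against the other 4, over 60 such groups, of which 6 had an array farther out than Dixon's 95% limit. Chance gives about 1 in 20. In irradiated p38DKI blood, array 2 was the far one for Cd3e at 1.76, Cd247 at -3.99, Cd5 at -0.59 and Cd28 at 0.51, and it also had the highest level of liver markers of all arrays. In irradiated p38WT blood, array 2 was far above the others for Cd8a at -1.01. In unirradiated p38DKI blood, array 3 was far below the others for Lat at 2.29. The irradiation response of Cd8b1 differed between p38DKI and p38DN by -3.358 on the log2 scale (adjusted p = 0.00762 in limma), and this call was lost under 4 of the alternatives. The cause of these values was not tested.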

How the results depend on the processing

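All values here are counts of the 10 genes unless a log2 value is named, and the cause of the changes was not tested. With probes well above background on all 30 arrays, Cd3e, Cd247 and Cd8a had no probe left and were not tested. A lower count under that setting is therefore not in itself a lost call. For the fall after 7 Gy in p38DKI (7 genes), 3 were lower without scaling, 3 after normexp background correction, 4 with probes well above background on all 30 arrays, 4 with the groups of the comparison alone and 1 with slide as a fixed block. In p38DN (4 genes) 0 were lower after normexp, 2 without scaling, without the filter on dim probes, with probes above background on all 30 arrays, with the mean of a gene's probes, with slide as a fixed block or with the replicate block, and 7 with liver marker level as a covariate. The 1 gene higher there was 0 after normexp and without the 4 arrays highest in liver markers. In p38WT (4 genes) 2 were lower after normexp or without the filter and 0 with slide as a fixed block, and 1 rose instead of 0 under array median scaling, the deposited values, probes above background on all 30 arrays, the groups alone, slide as a random block, the liver arrays left out, the liver covariate or the replicate block. For p38DKI minus p38WT after 7 Gy, 1 gene was lower with probes above background on all 30 arrays or slide as a random block. For unirradiated p38DN minus p38WT (5 lower, 1 higher), 8 were lower without scaling or with the groups alone, 3 with all 30 arrays above background or the liver arrays left out, 2 with the percentile over probes detected on all arrays, the deposited values or no filter, and 0 with the liver covariate. The number higher was 2 under array median, that percentile, quantile normalization or the groups alone, and 0 without scaling, after normexp, without the filter or with the mean of probes. After 7 Gy (6 lower, 2 higher) 3 were lower with that percentile or the liver covariate and 1 after normexp, and 1 was higher without scaling, after normexp, with deposited values, no filter, the mean of probes, the groups alone or the replicate block. For the irradiation response, p38DN minus p38WT gave 1 lower with the liver covariate and 1 higher under all 4 other scalings, the deposited values, all 30 arrays above background, the groups alone and slide as a random block, and p38DKI minus p38DN gave 0 instead of 1 after normexp, with the groups alone, with slide as a fixed block and without the liver arrays.

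With each array left out in turn, the numbers lower were 6 to 7 in p38DKI, 2 to 5 in p38DN and 2 to 4 in p38WT (0 to 1 higher), where leaving out any of 12 arrays gave 2. They were 0 to 1 for p38DKI minus p38WT after 7 Gy, 2 to 8 for unirradiated p38DN minus p38WT (0 to 2 higher, with 8 and 2 without irradiated p38DKI array 2), 1 to 2 higher after 7 Gy, 0 to 1 higher for the response of p38DN minus p38WT and 1 to 2 for p38DKI minus p38DN. The log2 change of Cd8a minus Cd4 after normexp was -1.368 in p38DKI, -0.545 in p38DN and 0.041 in p38WT, and that of Cd8b1 minus Cd4 in p38WT was -1.12. With the deposited values Cd8b1 minus Cd4 in p38DN was -1.251 and passed, where Cd4 is its dimmer probe, well above background on 0 p38DN arrays. The deviations from group means of same-numbered irradiated and unirradiated arrays of a genotype correlated between -0.214 and 0.411. In p38DN same-numbered arrays shared a slide, and in p38DKI and p38WT the numbers were not shown to pair samples. With the replicate block the changes of -3.135, -2.746, -2.336, -3.62 and -2.548 could not pass, the smallest exact permutation p being 0.0625. Of the called differences, those that turned were Cd4 in p38DKI without scaling (0.001) and Cd4 in p38DN with the deposited values (0.221, from that dimmer probe). Differences that were not called turned too, among them, without scaling, Cd3g (0.205), Cd28 (0.062) and Lat (0.35) in p38DKI and Cd3g in p38WT (-0.297), and with slide as a fixed block Cd3g (0.421), Cd28 (0.096) and Lat (0.53) in p38DKI and Cd3d (0.5) in p38WT. Over all genes, higher and lower calls in p38DKI numbered 2261 and 3606, against 3791 and 1280 under array median scaling and 3819 and 759 without scaling. They numbered 671 and 702 after normexp and 425 and 255 with slide as a fixed block. In p38WT they were 2814 and 2262, against 840 and 3379 without scaling, 2124 and 3756 with the percentile over detected probes and 420 and 914 after normexp. In p38DN they were 3291 and 1937, against 377 and 53 after normexp and 2690 and 2815 with that percentile. The median of all genes without scaling was 0.37 in p38DKI and -0.46 in p38WT.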
